A study of Mus musculus with 8 samples.

Results

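Transforming growth factor beta (TGF-beta) signaling was examined in cells sorted from the neonatal mouse cochlea through 10 genes, namely the ligands *Tgfb1*, *Tgfb2* and *Tgfb3*, the receptors *Tgfbr1*, *Tgfbr2* and *Tgfbr3*, and the latent TGF-beta binding proteins *Ltbp1*, *Ltbp2*, *Ltbp3* and *Ltbp4*. The genes were chosen by name and not by a rule on their values, although earlier results of these data were known. Each was found as 1 row among the 36536 Ensembl genes that the count tables list. TGF-beta ligands are made as precursors and secreted in a latent complex, in which the propeptide holds the mature ligand and an LTBP can tether the complex to matrix. Integrins or thrombospondin-1 can release the active ligand, which binds the type II receptor TGFBR2. TGFBR2 then phosphorylates the type I receptor TGFBR1, whose kinase activates SMAD2 and SMAD3, while TGFBR3 (betaglycan) presents ligand and is important for binding of TGF-beta 2. In the cochlea, TGF-beta 2 is known as a ligand needed for normal inner ear development.

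RNA-seq was performed on cells from *Lfng-GFP* BAC transgenic mice, B6;FVB-Tg(Lfng-EGFP)HM340Gsat/Mmucd, at postnatal day 1 (P1) and day 6 (P6). Every group carried the transgene, and cells were sorted straight from dissected cochleas with no culture and no treatment. Dissection differed by age. At P1 the lateral wall, Reissner's membrane and stria vascularis were taken away from the organ of Corti and Kölliker's organ. At P6 they were only partially removed, so age and dissection cannot be told apart in comparisons between the ages. The GFP+ groups hold only the brightest cells, in which *Lfng* regulatory sequence drives GFP in border, inner phalangeal, outer pillar and Deiters' cells but not in inner pillar cells. The GFP- groups hold unlabeled cells of the dissected tissue, a mixture of many types, and cells with low GFP were not collected. Each of the 4 groups (P1 GFP+, P1 GFP-, P6 GFP+ and P6 GFP-) has 2 replicate libraries from pooled pups. Nothing states that replicates came from separate litters, so the p-values measure the spread between these libraries, which may be technical.

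The libraries held 17769024 to 67695039 counts on genes, and levels are given as CPM, the count scaled to the gene total of its library, or as RPKM where genes are compared with each other, that is CPM per kilobase of annotated exon. In each group, 3 counts correspond to at most 0.169 CPM, well below the lowest level of any of the 10 genes. The 8 supporting cell markers summed to between 5936 and 9407 CPM in the GFP+ libraries and to between 264 and 398 CPM in the GFP- libraries, so the labels and the markers point the same way. Hair cell markers were also higher in GFP+ cells, with 5 of 6 passing the test at each age. The P6 GFP+ libraries differed from each other in markers of other cells. The 8 fibroblast and mesenchyme markers, all detected, summed to 1775 CPM in replicate 1 and 4132 CPM in replicate 2, against 445 to 486 CPM in P1 GFP+ and 22524 to 24418 CPM in P6 GFP- cells. The 7 endothelial markers summed to 80.1 and 299 CPM in the same libraries, against 31.2 to 35.6 CPM in P1 GFP+ cells and 357 to 363 CPM in P6 GFP- cells. The 5 Schwann cell markers summed to 1104 CPM in replicate 1 and 2343 CPM in replicate 2. They summed to 359 to 417 CPM in P1 GFP+ cells and 1365 to 1618 CPM in P6 GFP- cells, so replicate 2 stood above both P6 GFP- libraries. The part of these cells in the results for P6 GFP+ cells was not tested, and values without each P6 GFP+ library are given where a result rests on them. In bulk libraries, fewer cells of a type and less RNA per cell cannot be told apart.

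The genes lie on 8 chromosomes of the NCBIM37 (mm9) genome, and all 10 are annotated as protein-coding. The ligand genes are *Tgfb1* (ENSMUSG00000002603, chr7:26472021-26490096, plus strand), *Tgfb2* (ENSMUSG00000039239, chr1:188447065-188529871, minus strand) and *Tgfb3* (ENSMUSG00000021253, chr12:87397694-87419991, minus strand). The receptor genes are *Tgfbr1* (ENSMUSG00000007613, chr4:47366094-47427803, plus strand), *Tgfbr2* (ENSMUSG00000032440, chr9:115993415-116084383, minus strand) and *Tgfbr3* (ENSMUSG00000029287, chr5:107535589-107718648, minus strand). The binding protein genes are *Ltbp1* (ENSMUSG00000001870, chr17:75404908-75791852, plus strand), *Ltbp2* (ENSMUSG00000002020, chr12:86124162-86217482, minus strand), *Ltbp3* (ENSMUSG00000024940, chr19:5740904-5758532, plus strand) and *Ltbp4* (ENSMUSG00000040488, chr7:28090155-28122711, minus strand). *Ltbp2* shares 9.33% of its exon bases with a gene on the opposite strand. The library kit does not mark strand, so reads in that stretch cannot be assigned by strand.

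RefSeq promoter sequence (GRCm38.p6, a later build than that of the counts) was matched for 8 of the 10 genes. The 250 bases before the annotated start are shown for 4 genes with a large contrast between fractions at P1. *Ltbp4*, with a log2 fold change of -2.71 at P1, was also matched but is not shown. *Tgfb2* (chr1:186705990-186706239, minus strand) and *Tgfbr1* (chr4:47352972-47353221, plus strand, the more upstream of 2 listed starts) were higher in P1 GFP+ cells, whereas *Tgfbr2* (chr9:116175364-116175613, minus strand) and *Ltbp2* (chr12:84876492-84876741, minus strand) were lower. Capitals mark matches on either strand to 4 motifs. The TATA box was searched as TATAAA and the GC box, which binds SP1, as GGGCGG. The E-box of basic helix-loop-helix factors was searched as CACGTG. The core of the site of RBPJ, the DNA-binding protein of the Notch pathway, was searched as TGGGAA.
Tgfb2: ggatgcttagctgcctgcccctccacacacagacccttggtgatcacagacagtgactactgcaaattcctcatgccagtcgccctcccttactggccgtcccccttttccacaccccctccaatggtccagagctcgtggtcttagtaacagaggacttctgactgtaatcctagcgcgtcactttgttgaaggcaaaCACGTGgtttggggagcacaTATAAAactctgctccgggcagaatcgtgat
Tgfbr1: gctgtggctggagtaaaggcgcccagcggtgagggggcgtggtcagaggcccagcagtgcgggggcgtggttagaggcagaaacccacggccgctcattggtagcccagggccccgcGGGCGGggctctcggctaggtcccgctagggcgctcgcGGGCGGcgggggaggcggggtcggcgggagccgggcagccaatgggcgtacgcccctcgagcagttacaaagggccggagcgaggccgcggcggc
Tgfbr2: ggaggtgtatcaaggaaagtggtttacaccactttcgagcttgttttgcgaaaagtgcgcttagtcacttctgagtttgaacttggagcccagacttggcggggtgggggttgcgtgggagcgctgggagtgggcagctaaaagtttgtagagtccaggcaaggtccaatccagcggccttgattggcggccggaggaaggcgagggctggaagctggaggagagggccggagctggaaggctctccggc
Ltbp2: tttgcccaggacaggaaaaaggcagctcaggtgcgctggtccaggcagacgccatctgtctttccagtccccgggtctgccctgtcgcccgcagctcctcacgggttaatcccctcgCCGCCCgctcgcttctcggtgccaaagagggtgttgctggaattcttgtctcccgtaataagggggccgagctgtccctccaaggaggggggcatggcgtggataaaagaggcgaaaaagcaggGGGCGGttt
The *Tgfb2* stretch held the only TATA box among the 8 promoters, starting 31 bases before the start, and the only E-box, starting 51 bases before it. Over all 32851 promoters of the table, 12.4% of such stretches held TATAAA and 6.02% held CACGTG. *Tgfbr1* had 2 GC boxes and 74.8% G and C bases, against 53.6% in *Tgfb2*, 58.4% in *Tgfbr2* and 61.6% in *Ltbp2* and a median of 52.4% over all promoters. GC boxes were found in 4 of the 8 promoters (*Tgfb1*, *Tgfbr1*, *Ltbp2* and *Ltbp4*) and in 32.7% of all promoters. The RBPJ core was found in *Ltbp3* only, and in 21.6% of all promoters. None of the searched motifs overlapped another in these stretches. A match is a description of the letters and not a bound site.

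The first question was how the pathway's genes were divided between GFP+ and GFP- cells at each age. At P1 all 10 genes passed edgeR's quasi-likelihood test at an adjusted p below 0.05, with 2 higher in GFP+ cells (*Tgfb2* and *Tgfbr1*) and 8 lower. Among the 18682 genes tested at P1, 25.5% were called higher and 28.1% lower in GFP+ cells. Under stricter criteria taken from the study (adjusted p below 0.01 and more than 4-fold), 2 were higher and 4 lower (*Tgfbr2*, *Tgfbr3*, *Ltbp2* and *Ltbp4*), against 6.46% and 11.4% of all genes. The study also required a gene to pass in both DESeq and Cufflinks and, for its filtered lists, an expression cutoff, which were not applied here. At P6, 8 of 10 passed, with *Tgfb2* higher and 7 lower in GFP+ cells, against 15.5% and 17.9% of all 18294 genes tested. None of the 10 met the stricter criteria at P6, which 7.98% of all genes met in either direction, while with the DESeq2 test 3 of the 10 met them (*Tgfbr2*, *Tgfbr3* and *Ltbp2*), against 12.4% of all genes. All 10 had an unadjusted edgeR p below 0.05 at P6, against 44.9% of all genes tested. Over the 10 genes the median log2 fold change was -1.54 (P1) and -1.43 (P6), against 0.01 and -0.02 over all genes tested. At both ages the replicates of GFP+ and GFP- cells did not overlap for any of the 10 genes, as was also the case for 79.3% of all genes tested at P1 and 73.4% at P6. All 10 passed the filter on low counts in every comparison.

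**Figure D1:**
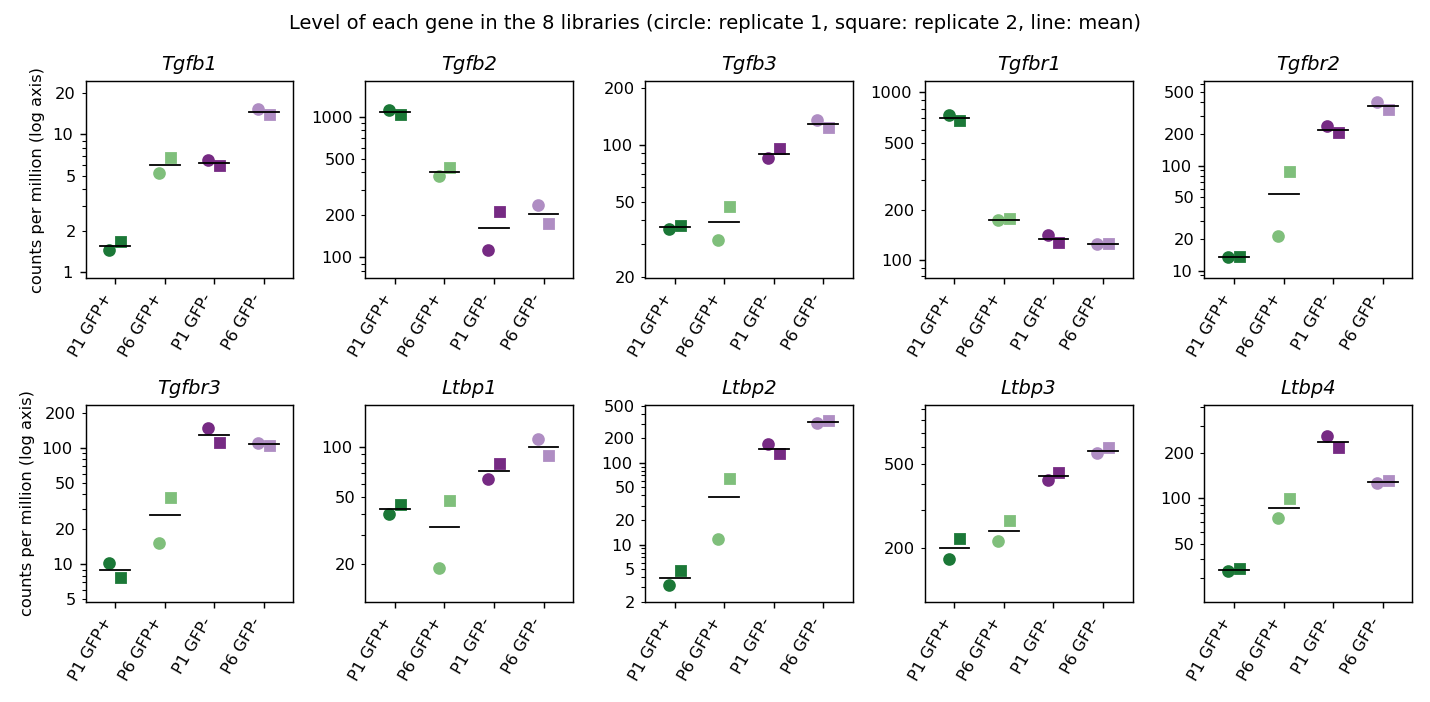
Level of each gene in the 8 libraries in CPM on a log axis whose range differs between panels, with circles for replicate 1, squares for replicate 2 and a line at the mean of the 2 replicates. *Tgfb2* and *Tgfbr1* stand highest in the 2 P1 GFP+ libraries, and the replicates of P6 GFP+ cells lie far apart for *Tgfbr2*, *Tgfbr3*, *Ltbp1* and *Ltbp2*.

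Among the ligands, only *Tgfb2* was higher in GFP+ cells. Its level was 1118 and 1019.8 CPM in P1 GFP+ cells against 113 and 208 CPM in P1 GFP- cells. It was 379 and 427 CPM in P6 GFP+ cells against 234 and 172 CPM in P6 GFP- cells. The GFP+ libraries were thus above the GFP- libraries at both ages, by a wide margin at P1 and a narrow margin at P6, and the P1 GFP- replicates differed from each other by 1.84 times. The log2 fold change was 2.84 (SE 0.29, edgeR adjusted p = 0.000513) at P1 and 0.98 (SE 0.22, edgeR adjusted p = 0.0228) at P6. The P6 call was lost without P6 GFP- replicate 1 (edgeR adjusted p = 0.0578) or without P6 GFP- replicate 2 (edgeR adjusted p = 0.201).

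*Tgfb3*, a ligand found in much mesenchyme, had the opposite distribution. It measured 36.0 and 37.4 CPM in P1 GFP+ cells, 85.1 and 94.6 CPM in P1 GFP- cells, 31.6 and 47.0 CPM in P6 GFP+ cells and 135 and 123 CPM in P6 GFP- cells. It was lower in GFP+ cells by 1.19 on the log2 scale at P1 (log2 fold change -1.19, SE 0.09, edgeR adjusted p = 0.000163) and by more at P6 (log2 fold change -1.72, SE 0.22, edgeR adjusted p = 0.00484). *Tgfb1*, the ligand best known from blood and immune cells, was scarce everywhere. It measured 1.44 and 1.65 CPM in P1 GFP+ cells, 6.49 and 5.86 CPM in P1 GFP- cells, 5.29 and 6.76 CPM in P6 GFP+ cells and 15.3 and 13.8 CPM in P6 GFP- cells. Only 66 and 41 counts stand behind the P1 GFP+ values, so their precision is lower than that of the other ligands. *Tgfb1* was lower in GFP+ cells at P1 (log2 fold change -1.90, SE 0.22, edgeR adjusted p = 0.00089) and at P6 (log2 fold change -1.27, SE 0.23, edgeR adjusted p = 0.0122).

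Among the receptors, only *Tgfbr1* was higher in P1 GFP+ cells. *Tgfbr1*, the type I receptor kinase, measured 731 and 679.7 CPM in P1 GFP+ cells against 141 and 127 CPM in P1 GFP- cells. At P6 it measured 174 and 175 CPM in GFP+ cells and 125 CPM in both GFP- libraries. The 2 fractions were far apart at P1 and near each other, although not overlapping, at P6. The log2 fold change was 2.50 at P1 (SE 0.12, edgeR adjusted p = 3.03e-05), and at P6 it was 0.48 (SE 0.15) and did not pass the test (edgeR adjusted p = 0.0615). The P6 difference did pass with the DESeq2 test (adjusted p = 0.0377) and with all 8 libraries in the fit (edgeR adjusted p = 0.0248). It was 0.51 without P6 GFP+ replicate 1 and 0.50 without replicate 2, in fits that have no spread within GFP+ cells.

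*Tgfbr2*, the ligand-binding type II receptor with which TGFBR1 signals, was far lower in GFP+ cells at P1. It measured 13.6 and 13.5 CPM in P1 GFP+ cells against 237 and 205 CPM in P1 GFP- cells. At P6 it measured 21.5 and 86.2 CPM in GFP+ cells against 400.1 and 338 CPM in GFP- cells. P6 GFP+ replicate 2 stood 4.01 times above replicate 1, yet both lay below every GFP- library. In log2 terms the difference was -3.92 at P1 (SE 0.12, edgeR adjusted p = 1.09e-05) and -2.79 at P6 (SE 0.62, edgeR adjusted p = 0.0213). At P6 it was -2.07 without GFP+ replicate 1 and -4.08 without GFP+ replicate 2, and the call was lost without GFP- replicate 2 (edgeR adjusted p = 0.0555).

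*Tgfbr3*, the betaglycan co-receptor, followed *Tgfbr2*. Its levels were 10.2 and 7.59 CPM in P1 GFP+ cells and 148 and 109.8 CPM in P1 GFP- cells, then 15.3 and 37.5 CPM in P6 GFP+ cells and 112 and 103 CPM in P6 GFP- cells. Both GFP+ groups lay below both GFP- groups, and the log2 fold change was -3.73 at P1 (SE 0.22, edgeR adjusted p = 6.63e-05) and -2.03 at P6 (SE 0.40, edgeR adjusted p = 0.0152), and at P6 it was -1.49 without GFP+ replicate 1 and -2.80 without GFP+ replicate 2. The P6 call was lost without GFP- replicate 2 (edgeR adjusted p = 0.0511).

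All 4 latent TGF-beta binding protein genes were lower in GFP+ cells at P1. *Ltbp2*, whose protein is a matrix component that does not hold latent TGF-beta as the other LTBPs do, had the largest contrast of the 10 genes. It measured 3.19 and 4.70 CPM in P1 GFP+ cells against 170.0 and 128 CPM in P1 GFP- cells, and 11.9 and 64.3 CPM in P6 GFP+ cells against 304 and 320.4 CPM in P6 GFP- cells. The 2 P6 GFP+ libraries differed by 5.41 times, the widest gap between replicates in the set, and still lay below the GFP- libraries. GFP+ cells differed from GFP- cells by -5.17 on the log2 scale at P1 (SE 0.23, edgeR adjusted p = 2.71e-05) and -3.05 at P6 (SE 0.73, edgeR adjusted p = 0.0269). The P6 value was -2.25 without GFP+ replicate 1 and -4.70 without GFP+ replicate 2, and its call was lost without GFP- replicate 2 (edgeR adjusted p = 0.0723).

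*Ltbp3*, a binder known for its part in skeletal growth, had a like contrast at both ages. It measured 177 and 221 CPM in P1 GFP+ cells, 418 and 453 CPM in P1 GFP- cells, 215 and 266 CPM in P6 GFP+ cells and 559 and 592 CPM in P6 GFP- cells. The GFP- libraries stood above the GFP+ libraries throughout, with log2 fold changes of -1.03 at P1 (SE 0.12, edgeR adjusted p = 0.000839) and -1.27 at P6 (SE 0.20, edgeR adjusted p = 0.00795). *Ltbp4*, a binder that also organizes elastic fibers, measured 33.1 and 34.1 CPM in P1 GFP+ cells against 258 and 215 CPM in P1 GFP- cells. At P6 it measured 74.2 and 98.3 CPM in GFP+ cells and 127 and 131 CPM in GFP- cells. The gap between fractions was wide at P1 (log2 fold change -2.71, SE 0.12, edgeR adjusted p = 2.72e-05), and at P6 the difference did not pass the test (log2 fold change -0.58, SE 0.18, edgeR adjusted p = 0.0556). It did pass with no filter on low counts (edgeR adjusted p = 0.0279) and with all 8 libraries in the fit (edgeR adjusted p = 0.0125). The log2 fold change was -0.36 without P6 GFP+ replicate 1 and -0.77 without replicate 2. *Ltbp1*, which links latent complexes to fibrillin and fibronectin matrix, measured 39.9 and 45.2 CPM in P1 GFP+ cells and 64.1 and 79.0 CPM in P1 GFP- cells. It measured 19.1 and 47.5 CPM in P6 GFP+ cells and 111 and 87.8 CPM in P6 GFP- cells. This smallest of the P1 contrasts (log2 fold change -0.65, SE 0.12, edgeR adjusted p = 0.00603) was lost without P1 GFP+ replicate 1 (edgeR adjusted p = 0.0602) and with all 8 libraries in the fit (edgeR adjusted p = 0.153). At P6 the *Ltbp1* log2 fold change was -1.59 (SE 0.41, edgeR adjusted p = 0.0339), -1.04 without GFP+ replicate 1 and -2.36 without GFP+ replicate 2. Without P6 GFP- replicate 1 or replicate 2, the P6 calls of *Tgfb1*, *Ltbp1* and *Ltbp3* were also lost, and the count of 8 fell to 4 and to 1.

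**Figure D2:**
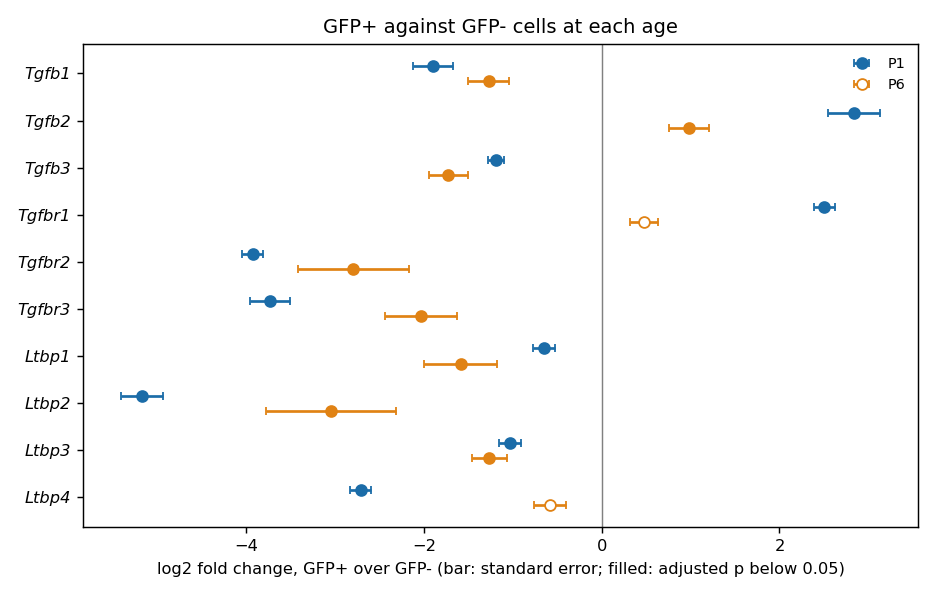
Log2 fold change of GFP+ over GFP- cells for each gene at P1 (blue) and P6 (orange), with bars of 1 standard error and filled points for an adjusted p below 0.05 in edgeR's quasi-likelihood test. Only *Tgfb2* and *Tgfbr1* lie right of 0, with 2.84 and 2.50 at P1 and 0.98 and 0.48 at P6.

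Relative to gene length, the pathway's makeup differed between the fractions. In P1 GFP+ cells *Tgfb2* ranked first at 221 RPKM ± 14.4 (SD, n = 2), followed by *Tgfbr1* at 108 RPKM ± 5.57 (SD, n = 2) and *Ltbp3* at 38.3 RPKM ± 5.88 (SD, n = 2). *Tgfb3*, *Ltbp4*, *Ltbp1*, *Tgfbr2* and *Tgfbr3* followed in that order, with no overlap between neighbors, while the replicates of the last pair, *Tgfb1* and *Ltbp2*, overlapped. In P1 GFP- cells *Ltbp3* ranked first at 83.8 RPKM ± 4.81 (SD, n = 2), and *Ltbp4*, *Tgfb2*, *Tgfbr2* and *Tgfb3* followed with overlapping neighbors. *Tgfbr1*, *Tgfbr3* and *Ltbp2* came next, again overlapping, before *Ltbp1* and *Tgfb1*. In P6 GFP+ cells *Tgfb2* (83.2 RPKM ± 7.03, SD, n = 2), *Ltbp3* (46.3 RPKM ± 6.92, SD, n = 2) and *Tgfbr1* (26.7 RPKM ± 0.0924, SD, n = 2) led in that order without overlap, and all lower ranks overlapped with their neighbors. In P6 GFP- cells *Ltbp3* again led at 111 RPKM ± 4.53 (SD, n = 2), followed by *Tgfbr2*, *Tgfb2*, *Tgfb3* and *Ltbp2*, which overlapped with their neighbors, and *Tgfb1* was last at 5.68 RPKM ± 0.425 (SD, n = 2).

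*Tgfb2* held 95.4% and 94.7% of the ligands' summed RPKM in P1 GFP+ cells, then 87.3% and 84.2% of it at P6, but between 45.8% and 58.6% among the GFP- libraries. There *Tgfb3* held most of the rest, 38.2% to 49.3%. *Tgfbr1* held 97.2% and 97.3% of the receptors' summed RPKM in P1 GFP+ cells and, at P6, 84.2% and 62.0%, against 22.3% to 31.6% in the GFP- libraries. The ratio of *Tgfbr1* to *Tgfbr2* RPKM in GFP+ cells was 66.8 and 62.1 at P1 and 10.0 and 2.51 at P6. In GFP- cells that ratio was 0.734 and 0.766 at P1 and 0.387 and 0.456 at P6. The type I receptor gene thus exceeded the type II receptor gene in all 4 GFP+ libraries and was below it in all 4 GFP- libraries. Among the binders *Ltbp3* led in every library, with 54.6% to 80.8% of their summed RPKM, and *Ltbp2* went from 0.897% and 1.09% in P1 GFP+ cells to 21.2% and 21.6% in P6 GFP- cells. The summed RPKM of the 4 binders was 43.4 and 52.5 in P1 GFP+ cells against 147 and 143 in P1 GFP- cells.

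**Figure D3:**
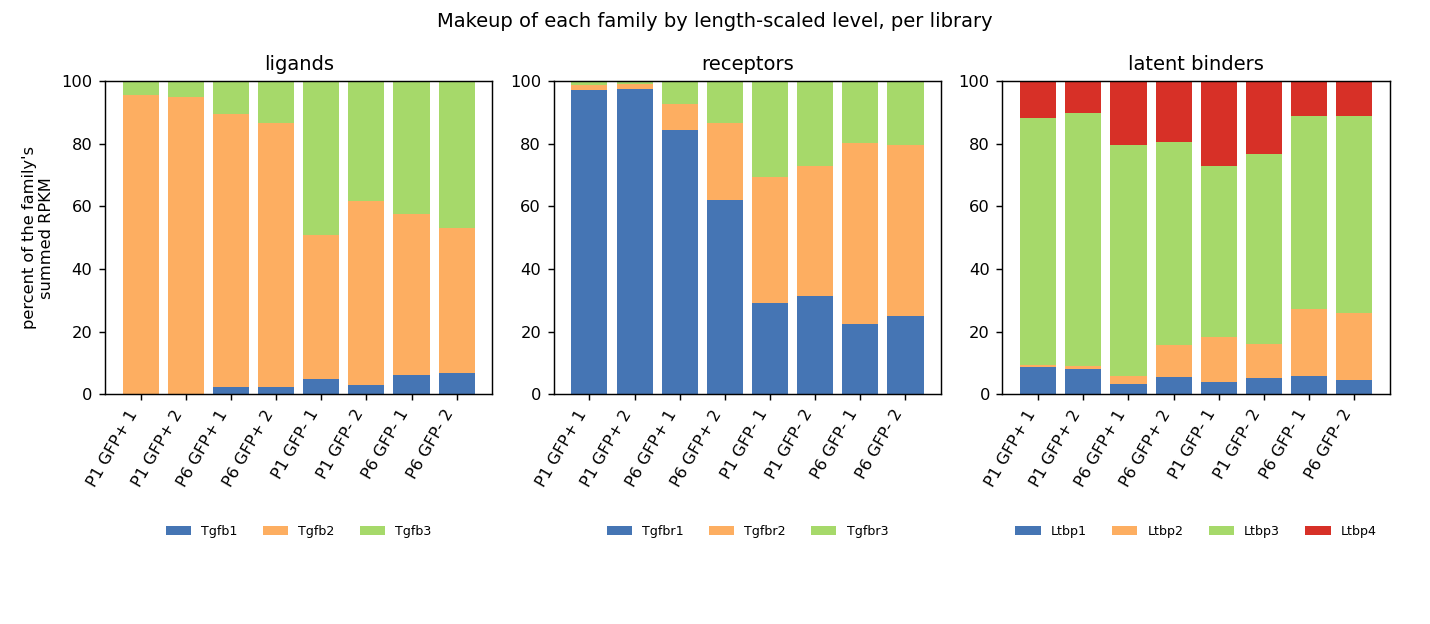
Share of each gene in the summed RPKM of its family, in percent, for each of the 8 libraries, with ligands at left, receptors in the middle and latent binders at right. *Tgfb2* and *Tgfbr1* fill over 94% of their families in both P1 GFP+ libraries, while in GFP- libraries *Tgfbr1* holds at most 31.6% of the receptors.

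The second question was how the genes differed between P1 and P6 within each fraction, where age and dissection changed together. In GFP+ cells 5 of 10 passed the test, with *Tgfb1*, *Ltbp2* and *Ltbp4* higher and *Tgfb2* and *Tgfbr1* lower at P6, against 12.1% and 8.31% of the 17213 genes tested. The median log2 fold change was 0.91 for the 10 genes and 0.00 for all genes, and the replicates did not overlap for 7 of 10, a share near the 70.3% of all genes tested. *Tgfb2* fell from 1118 and 1019.8 CPM to 379 and 427 CPM (log2 fold change -1.32, SE 0.16, edgeR adjusted p = 0.00796), and *Tgfbr1* from 731 and 679.7 CPM to 174 and 175 CPM (log2 fold change -1.92, SE 0.14, edgeR adjusted p = 0.00297). These falls were of like size without P6 GFP+ replicate 1 (-1.26 and -1.95) or replicate 2 (-1.37 and -1.90), although the *Tgfb2* call was lost without P1 GFP+ replicate 2 (edgeR adjusted p = 0.0585). Over the same libraries the summed supporting cell markers went from 8977 and 9407 CPM to 7952 and 5936 CPM, and 3 of the 8 markers were called lower at P6.

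The 3 genes that rose in GFP+ cells were all lower in GFP+ than in GFP- cells at P1. *Ltbp4* rose from 33.1 and 34.1 CPM to 74.2 and 98.3 CPM (log2 fold change 1.45, SE 0.16, edgeR adjusted p = 0.00631) and its call held without either P6 library. *Tgfb1* rose from 1.44 and 1.65 CPM to 5.29 and 6.76 CPM (log2 fold change 2.06, SE 0.28, edgeR adjusted p = 0.0111), a call lost without P1 GFP+ replicate 1 (edgeR adjusted p = 0.0655) or replicate 2 (edgeR adjusted p = 0.1). *Ltbp2* rose from 3.19 and 4.70 CPM to 11.9 and 64.3 CPM (log2 fold change 3.37, SE 0.81, edgeR adjusted p = 0.0429), with values of 1.75 without P6 GFP+ replicate 2 and 4.14 without replicate 1, and its call was lost without P1 GFP+ replicate 2 (edgeR adjusted p = 0.0811). Across the same comparison 6 of 8 fibroblast and 4 of 7 endothelial markers were called higher at P6. So were 4 of 6 macrophage and 4 of 5 Schwann cell markers, and none of these lists had a marker called lower. Of the other lists, 4 of 6 cartilage and bone, 2 of 2 tested melanocyte and 1 of 4 neuron markers were higher, with none lower. Pericytes had 1 of 5 markers higher and 1 lower, and hair cells had 2 of 6 lower. The part of those cells in the 3 rises was not tested. P6 GFP+ replicate 2 had the higher sum for every marker list except that of supporting cells. It had the higher level of *Ltbp1*, *Ltbp2*, *Tgfbr2* and *Tgfbr3*, by 2.48, 5.41, 4.01 and 2.46 times. That library was also higher for *Tgfb3*, *Ltbp4*, *Tgfb1* and *Ltbp3*, by 1.49, 1.32, 1.28 and 1.24 times. For *Tgfb2* and *Tgfbr1* it stood at 1.13 and 1.00 times the other.

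The other 5 genes did not pass in GFP+ cells. The log2 fold change was 2.07 for *Tgfbr2* (SE 0.62, edgeR adjusted p = 0.0717) and 1.64 for *Tgfbr3* (SE 0.44, edgeR adjusted p = 0.0565), and the replicates did not overlap for either. Both calls depended on the fit. Both passed with the DESeq2 test (adjusted p = 0.000498 and 0.00107), and *Tgfbr2* passed with the replicate block (edgeR adjusted p = 0.042). Without P6 GFP+ replicate 2, which held the higher levels of both, the values were 0.79 and 0.88. Without replicate 1 they were 2.73 and 2.11. For *Ltbp3*, *Tgfb3* and *Ltbp1* the values were 0.37, 0.19 and -0.26, with edgeR adjusted p of 0.167, 0.521 and 0.662. The sign of *Tgfb3* turned to -0.090 without P6 GFP+ replicate 2, and that of *Ltbp1* to 0.23 without P6 GFP+ replicate 1. Without replicate 1 the values of *Ltbp3* and *Tgfb3* were 0.49 and 0.42, and without replicate 2 that of *Ltbp1* was -1.02.

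In GFP- cells 7 of 10 genes passed, 6 higher and 1 lower at P6, against 11.3% and 7.87% of the 18920 genes tested. The median log2 fold change was 0.63 for the 10 genes and -0.02 for all genes. Scaling by library totals in place of TMM factors moved the median of all genes by -0.19 and the share of called genes that were higher at P6 from 58.9% to 33.6%. Relative to that shift the 6 rises kept their direction, and the call of *Ltbp1* was lost (edgeR adjusted p = 0.0781). *Tgfb1* rose most, by 1.43 on the log2 scale (SE 0.18, edgeR adjusted p = 0.00296), followed by *Ltbp2* with 1.26 (SE 0.16, edgeR adjusted p = 0.00284) and *Tgfbr2* with 0.93 (SE 0.15, edgeR adjusted p = 0.00709). The rises of *Tgfb3* (0.72), *Ltbp1* (0.67) and *Ltbp3* (0.59) were smaller, with edgeR adjusted p of 0.00811, 0.0335 and 0.0186. *Ltbp4* was the only gene of the 10 that was called lower at P6 in GFP- cells, from 258 and 215 CPM to 127 and 131 CPM (log2 fold change -0.69, SE 0.13, edgeR adjusted p = 0.012). *Tgfb2* (0.53, SE 0.29), *Tgfbr1* (0.09, SE 0.11, but -0.10 with library totals) and *Tgfbr3* (-0.07, SE 0.16) did not pass. The replicates of P1 and P6 did not overlap for 8 of the 10 genes and for 69.4% of all genes tested. The count of 7 fell to 4 with all 8 libraries in the fit, to 3 without P6 GFP- replicate 1 and to 5 without P6 GFP- replicate 2. In these GFP- libraries 4 of 8 fibroblast, 3 of 7 endothelial and 5 of 6 cartilage and bone markers were also called higher at P6. In the last list 1 marker was called lower. Of the other lists, 4 of 6 macrophage, 3 of 5 Schwann cell, 3 of 5 pericyte and 3 of 4 melanocyte markers were higher, with 1 melanocyte marker lower. Hair cells had 3 of 6 markers lower, neurons 1 of 4 and supporting cells 2 of 8, with 1 supporting cell marker higher. The part of these cells, and of the dissection, which differed between the ages, was not tested.

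**Figure D4:**
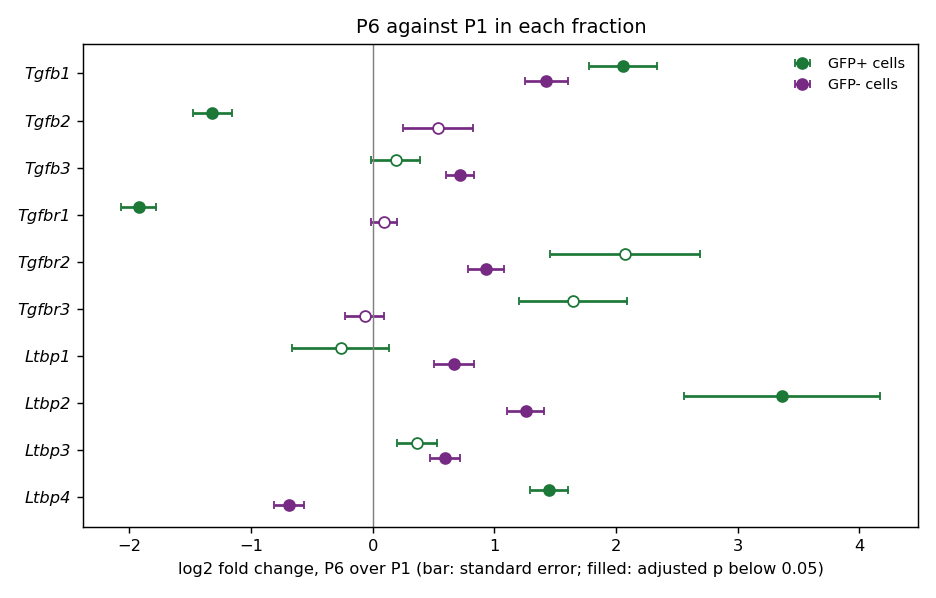
Log2 fold change of P6 over P1 for each gene in GFP+ cells (green) and GFP- cells (purple), with bars of 1 standard error and filled points for an adjusted p below 0.05 in edgeR's quasi-likelihood test. *Tgfb2* and *Tgfbr1* fell by 1.32 and 1.92 in GFP+ cells, and *Ltbp4* moved by 1.45 in GFP+ cells and by -0.69 in GFP- cells.

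The change with age of the GFP+ to GFP- ratio was tested as an interaction over all 8 libraries, in which 3 of 10 genes passed, against 6.38% of the 19233 genes tested. The log2 ratio of *Tgfbr1* was larger at P1 than at P6 by 2.04 (SE 0.19, edgeR adjusted p = 0.00137) and that of *Tgfb2* by 1.88 (SE 0.41, edgeR adjusted p = 0.0359). *Ltbp4* changed the other way, by -2.11 (SE 0.22, edgeR adjusted p = 0.00215). The interactions of *Tgfbr1* and *Ltbp4* passed in each of the 13 alternatives run, whereas that of *Tgfb2* was lost with a replicate block (edgeR adjusted p = 0.0733) and without each P1 GFP+ library, P1 GFP- replicate 1 or each P6 GFP- library (edgeR adjusted p from 0.051 to 0.147). The interaction of *Tgfbr3* was -1.69 (SE 0.50, edgeR adjusted p = 0.0936) and that of *Ltbp2* -2.10 (SE 0.85, edgeR adjusted p = 0.203), and both passed without P6 GFP+ replicate 1. For *Tgfbr2* it was -1.11 (SE 0.69, edgeR adjusted p = 0.41), and 0.18 without P6 GFP+ replicate 2. The count of 3 became 7 with no filter on low counts, 6 without P6 GFP+ replicate 1 and 5 without P6 GFP+ replicate 2.

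The rest of the pathway was read from 4 gene lists with 45 genes, of which 44 were found in the tables and *Lrrc32* was not analysed here. The list of SMAD transducers and regulators had 4 genes higher, 4 lower and 5 not called at P1 among its 13, with a median log2 fold change of 0.01, like that of all genes, of which 25.5% were called higher and 28.1% lower. *Smad3*, a receptor-activated SMAD, measured 12.8 and 12.7 CPM in P1 GFP+ cells against 171 and 141 CPM in P1 GFP- cells (log2 fold change -3.50, SE 0.13, edgeR adjusted p = 1.67e-05). It remained lower at P6, at 23.2 and 39.2 CPM against 132 and 120.2 CPM (log2 fold change -2.02, SE 0.27, edgeR adjusted p = 0.00503). *Zfyve9*, which encodes SARA, the anchor that brings SMAD2 and SMAD3 to the receptor, was higher in GFP+ cells at P1, like *Tgfbr1*. Its levels were 281 and 265 CPM in P1 GFP+ cells, 66.0 and 68.8 CPM in P1 GFP- cells, 71.1 and 89.8 CPM in P6 GFP+ cells and 61.9 and 56.4 CPM in P6 GFP- cells. The *Zfyve9* log2 fold change was 2.12 at P1 (SE 0.10, edgeR adjusted p = 2.72e-05) and 0.43 at P6 (SE 0.17, edgeR adjusted p = 0.105), and the interaction was 1.70 (SE 0.20, edgeR adjusted p = 0.00341). *Smad6*, an inhibitory SMAD, was higher in GFP+ cells at P1 by 1.51 and at P6 by 1.41 on the log2 scale (edgeR adjusted p = 0.000128 and 0.00655). *Bambi*, a decoy receptor, was lower at both ages, with log2 fold changes of -1.03 and -1.44 (edgeR adjusted p = 0.000452 and 0.0029). *Smad2*, the other receptor-activated SMAD of this pathway, did not pass at P1 (log2 fold change -0.12, SE 0.14, edgeR adjusted p = 0.517).

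Of the 13 tested genes for storage and activation of latent TGF-beta, 3 were higher and 7 lower in P1 GFP+ cells. Of all genes tested, 25.5% were higher and 28.1% lower. The median log2 fold change was -0.54, against 0.01 over all genes. *Thbs1*, whose protein thrombospondin-1 can activate latent TGF-beta, was the exception in size among the higher genes. It measured 1303 and 1209 CPM in P1 GFP+ cells, 108 and 134 CPM in P1 GFP- cells, 185 and 269 CPM in P6 GFP+ cells and 342 and 275 CPM in P6 GFP- cells. Its levels in P6 GFP+ cells were a small part of those at P1 and lay below both P6 GFP- libraries. The log2 fold change was 3.48 at P1 (SE 0.15, edgeR adjusted p = 2.48e-05) and -0.45 at P6 (SE 0.24, edgeR adjusted p = 0.206), with an interaction of 3.95 (SE 0.32, edgeR adjusted p = 0.000928). The matrix genes *Emilin1* and *Fn1*, of which the first encodes a protein that limits TGF-beta processing and the second fibronectin, were lower in P1 GFP+ cells, with log2 fold changes of -5.27 and -3.08 (edgeR adjusted p = 1.09e-05 and 3.97e-05). *Itgb3*, an integrin subunit, measured 8.16 and 6.87 CPM in P1 GFP+ cells, 64.8 and 60.4 CPM in P1 GFP- cells, 32.7 and 46.1 CPM in P6 GFP+ cells and 39.5 and 41.3 CPM in P6 GFP- cells. Its log2 fold change was -2.94 at P1 (edgeR adjusted p = 3.03e-05) and -0.04 at P6 (edgeR adjusted p = 0.885), and the interaction was -2.89 (SE 0.25, edgeR adjusted p = 0.00115).

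All 7 tested co-receptors and TGF-beta-binding proteins were lower in P1 GFP+ cells, with a median log2 fold change of -3.60, and 5 of 8 were lower at P6. Of all genes tested, 28.1% were lower at P1 and 17.9% at P6. *Bgn*, a proteoglycan that binds TGF-beta, measured 11.1 and 11.5 CPM in P1 GFP+ cells and 463 and 468 CPM in P1 GFP- cells. *Eng* and *Acvrl1*, the endoglin co-receptor and the ALK1 type I receptor of endothelium, had log2 fold changes of -4.53 and -4.20 at P1 (edgeR adjusted p = 1.4e-05 and 3.03e-05), and *Fmod*, which encodes the matrix protein fibromodulin, had -3.60 (edgeR adjusted p = 4.86e-05). In GFP+ cells 6 of the 8 were higher at P6 than at P1 and none lower, with a median of 2.48, against 12.1% and 8.31% of all genes and a median of 0.00. *Acvrl1* measured 5.06 and 20.4 CPM and *Eng* 23.4 and 68.4 CPM in P6 GFP+ replicates 1 and 2, the replicates whose endothelial marker sums were 80.1 and 299 CPM.

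Among 10 genes widely used as TGF-beta response genes, 8 were lower in P1 GFP+ cells, 2 were not called and none was higher. Their median log2 fold change was -2.72, and at P6 the counts were 8, 2 and 0 with a median of -1.92. Of all genes tested, 28.1% were lower and 25.5% higher at P1, and 17.9% and 15.5% at P6. The medians of all genes were 0.01 and -0.02. *Tgfbi*, a TGF-beta-induced matrix gene, measured 16.8 and 15.8 CPM in P1 GFP+ cells against 1253 and 1003 CPM in P1 GFP- cells (log2 fold change -6.01, SE 0.18, edgeR adjusted p = 1.09e-05). *Timp3* (-3.93) and *Postn* (-3.55), which encode a protease inhibitor and a matrix protein, were also lower at P1, with edgeR adjusted p of 1.78e-05 and 0.000747. These genes are also made by fibroblasts, whose 8 markers were all lower in P1 GFP+ cells with a median log2 fold change of -5.61, and the part of those cells in the response gene values was not tested.

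**Figure D5:**
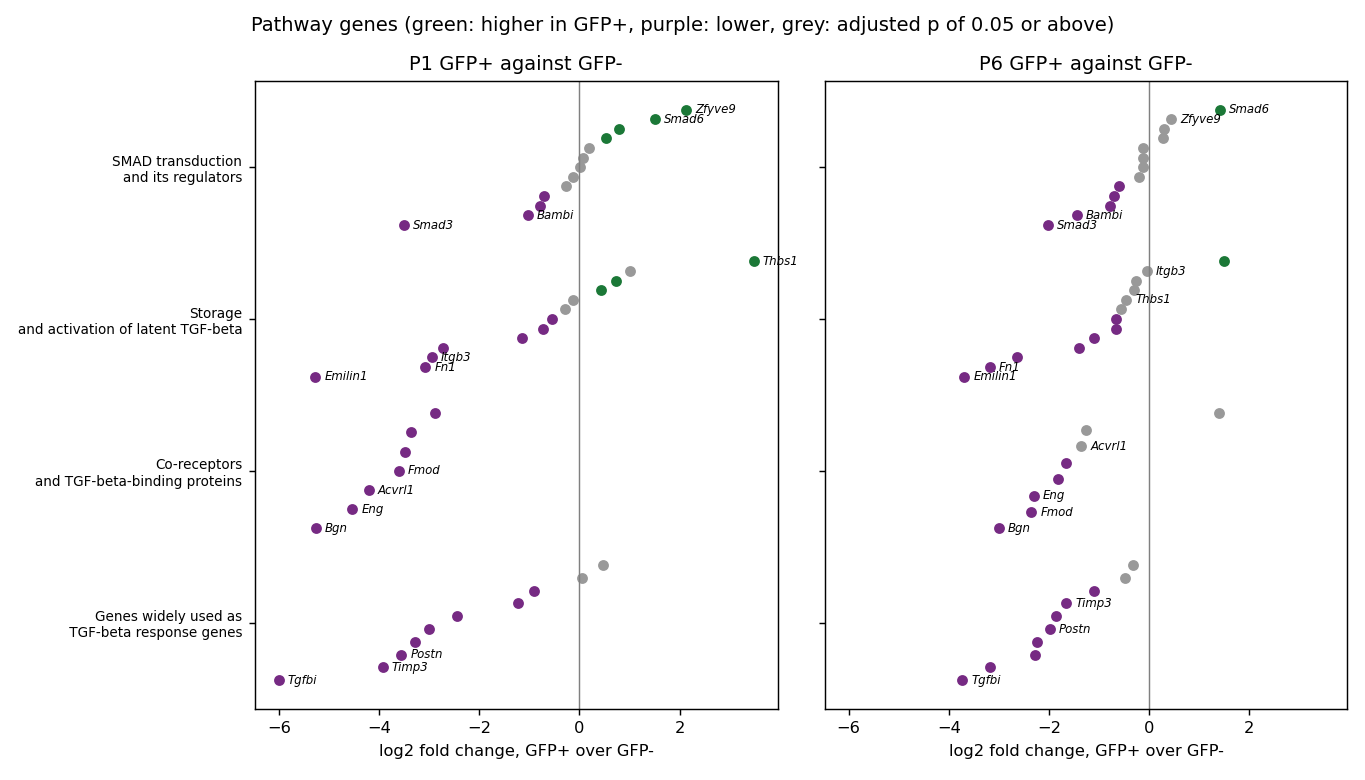
Log2 fold change of GFP+ over GFP- cells for the tested genes of the 4 pathway lists at P1 (left) and P6 (right), with green for higher, purple for lower and grey for an adjusted p of 0.05 or above in edgeR's quasi-likelihood test. The co-receptors and the response genes have no gene called higher at either age, and *Thbs1* goes from 3.48 at P1 to -0.45 at P6.

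The 3 genes with the most similar profile over the 8 libraries were found for each of the 10 genes among 12471 genes, as the smallest root mean square (RMS) difference of log2 CPM after each profile was centred on its mean. The libraries share fraction and age, so such likeness is a description. *Tgfbr1* was nearest to *Zfyve9* (RMS 0.18), *Hsd17b14* (0.19) and *Itga6* (0.22), and *Tgfb2* to *Cybrd1* (0.18), *Spata13* (0.24) and *Tmem2* (0.25). *Tgfbr2* was nearest to *Fli1*, a transcription factor known from endothelium and blood (RMS 0.09), *Igfbp2* (0.12) and *Nbl1* (0.17), and *Tgfbr3* to *Gas2l3* (0.14), *Pip5k1b* (0.16) and *Gria3* (0.17). The smallest RMS of all was that of *Tgfb3* with *Pdgfc*, a growth factor gene (0.05), followed by *Cerk* (0.05) and *Fkbp10* (0.08). RMS was not scaled to a profile's log2 range, which was 2.08 for *Tgfb3* and went from 1.74 for *Ltbp3* to 6.44 for *Ltbp2*. *Tgfb1* was nearest to *Myd88* (0.16), *Nebl* (0.19) and *Rassf3* (0.19). Among the binders, *Ltbp1* was nearest to *Chn2* (0.16), *AI646023* (0.17) and *Plcxd3* (0.18), *Ltbp2* to *Islr* (0.21), *Wdr86* (0.24) and *A930038C07Rik* (0.25), *Ltbp3* to *Nde1* (0.10), *Rps6ka4* (0.11) and *Gm13597* (0.11), and *Ltbp4* to *Homer2* (0.19), the intermediate filament gene *Vim* (0.20) and *Cd97* (0.21).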

How the data were processed

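The authors aligned paired-end reads to mm9 with TopHat (1.4.0 in the submitters' notes) and deposited raw read counts per Ensembl gene (HTSeq is named in the notes), without normalization. Gene counts made up 64.7% to 76.2% of the reads listed per library, and the rest (on no gene, on several genes or aligned at several places) was left out. Gene symbols were matched in NCBIM37 for 34391 of 36536 genes. Each comparison was fitted on its own libraries with edgeR 4.0.16 (R 4.3.3), using filterByExpr (minimum count 10, minimum total 15), TMM, the quasi-likelihood test and Benjamini-Hochberg adjustment over all genes tested. The interaction used all 8 libraries. The SE is the log2 fold change divided by the square root of F. The procedure was tested on simulated data.

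The 10 genes, pathway lists and markers were chosen with earlier results of these data known. Named pathway genes are at most the 4 largest changes called at P1 in each list. *Smad2* was named after its value was seen. A gene that this rule names in the response list, and an exon overlap of *Ltbp3*, are not reported here. Profiles used log2(CPM + 0.5) and a mean of at least 5 CPM. Alternatives were DESeq2 1.42.0, DESeq2 size factors, library totals, no filter, all 8 libraries, a replicate block and leaving out each library.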

Additional observations from a re-analysis of the deposited data

Results flagged for a closer look

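The ratio of GFP+ to GFP- cells differed between the ages for 3 of the 10 genes, by the test of the difference itself (edgeR's quasi-likelihood interaction test, adjusted over all genes). For *Tgfbr1*, the type I receptor, the P1 log2 ratio exceeded the P6 ratio by 2.04 (SE 0.19, edgeR adjusted p = 0.00137). For *Tgfb2* it did so by 1.88 (SE 0.41, edgeR adjusted p = 0.0359), a call lost with the replicate block (edgeR adjusted p = 0.0733) and in 5 of the 8 fits that left out a library. For *Ltbp4* the P1 log2 ratio was below the P6 ratio, with a difference of -2.11 (SE 0.22, edgeR adjusted p = 0.00215).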

How the results depend on the processing

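With 2 libraries per group, leaving out a library changed many calls. Such a fit has 1 library in a group, which gives no spread within that group. Of 550 values for the 10 genes under the alternatives, 473 kept their direction and side of the threshold, 33 lost the call, 38 gained it and 6 turned sign. Of the 10 called at P1, 9 to 10 remained called without each library in turn. At P6 the count of 8 ranged from 1 to 10 (4 without GFP- replicate 1 and 1 without GFP- replicate 2). In GFP+ cells over age the count of 5 ranged from 2 (without P1 GFP+ replicate 2) to 9 (without P6 GFP+ replicate 1), and was 8 without P6 GFP+ replicate 2. In GFP- cells over age the count of 7 ranged from 3 (without P6 GFP- replicate 1) to 8, and was 4 with all 8 libraries in the fit. For the interaction the count of 3 ranged from 2 to 6 without each library, and was 7 with no filter on low counts. The values that turned sign had not passed the test. Without each library, *Tgfb3* in GFP+ cells over age ranged from -0.090 (without P6 GFP+ replicate 2) to 0.42, and *Ltbp1* from -1.02 to 0.23 (without P6 GFP+ replicate 1). In GFP- cells over age *Tgfbr3* ranged from -0.28 to 0.15, positive without P1 GFP- replicate 1 or P6 GFP- replicate 2, and *Tgfbr1* was -0.10 with library totals. The interaction of *Tgfbr2* ranged from -1.77 to 0.18 (without P6 GFP+ replicate 2). The cause was not tested.

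The labels do not state whether same-numbered samples were paired. Deviations of same-numbered samples correlated at 0.04 (P1) and 0.06 (P6) between fractions, which cannot show whether they shared a sort. Between ages, where the animals differ, the values were -0.16 (GFP+) and -0.33 (GFP-). With the replicate block the counts called were 10, 8, 6, 7 and 2 in the 5 comparisons. Crossed numbers, chosen after seeing the data, gave 7 (GFP+ over age) and 8 (GFP- over age).

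Over all genes, 10022 were called at P1 (6412 and 6520 without each GFP+ library) and 6122 at P6 (9806, 2359 and 1940 without GFP+ replicate 2, GFP- replicate 1 and GFP- replicate 2). In GFP+ cells over age 3511 were called, 5854 with no filter and 680 to 9491 without each library. In GFP- cells over age 3619 were called, 5444 with no filter, 5481 with the crossed block, and 1140 and 1613 without P6 GFP- replicates 1 and 2. For the interaction 1228 were called, 2289 with DESeq2, 3201 with no filter, 750 with the replicate block and 337 to 2991 without each library. Library totals moved the median of all genes by -0.10 at P1 and by -0.12 in the interaction, where the share with a higher P1 ratio among called genes went from 43.7% to 33.0%. *Tgfb1* in P1 GFP+ cells rests on 41 to 66 counts.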
